A study of Mus musculus with 15 samples.

Results

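FGF9 was compared with FGF8b in 6 of the 15 libraries of the series, 3 from FGF9-treated and 3 from FGF8b-treated immortalised brown preadipocytes, chosen by their labels. The cells came from the stromal-vascular fraction of 129SvEv interscapular brown fat and carry the SV40 large T antigen, as did the control cells. The FGF9 and FGF8b cells each received 5.56 nM of the growth factor for 48 h. The series text puts 1 µg/ml heparin with every FGF, whereas among the sample labels only those of FGF9 mention it, so a heparin difference between FGF9 and FGF8b cells cannot be told apart from the ligand. The labels give no agent for the control cells, and no time or heparin for them. FGF1 cells and cells given FGF8b with 2 µM BAY-876, which blocks glucose entry through GLUT1, share the estimate of the spread and serve to group genes by a change that involves no FGF9 library and no library of FGF8b alone. No source used here says that replicates were separate cultures, so p-values measure the spread between these libraries, which may be technical.

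FGF8b and FGF9 are paracrine fibroblast growth factors of different subfamilies. Both bind receptor tyrosine kinases at the cell surface together with heparan sulfate, and the receptors switch on the RAS-ERK kinase cascade. ERK induces immediate early transcription factors such as Egr1, and also its own brakes, among them the Sprouty proteins and the phosphatase Dusp6. Brown preadipocytes are the precursors of heat-producing brown adipocytes, which burn fuel through the mitochondrial uncoupling protein Ucp1.

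The values are RPKM, reads scaled by transcript length and by library size. Their steps imply 37.3 to 41.6 M reads per FGF9 library, 28.3 to 35.7 M per FGF8b library and 31.6 to 37.5 M per control library, so every FGF9 library was deeper than every FGF8b library. The preadipocyte markers Pdgfra, Pdgfrb, Ly6a, Dlk1, Cd34, Thy1 and Ebf2 were all present, with a summed level of 372.4 to 430.1 RPKM in FGF9 cells, 382.8 to 439.3 RPKM in FGF8b cells and 1651 to 1828 RPKM in control cells. They did not move together. Ly6a, the largest part of the control sum, averaged 44.69, 52.65 and 1015 RPKM in FGF9, FGF8b and control cells. Pdgfra, Pdgfrb, Dlk1 and Cd34 also lay below control with both ligands. Thy1 lay above it (58.29, 62.8 and 37.81 RPKM), and Ebf2 was near it (10.98, 12.73 and 11.14 RPKM). The lists of muscle, endothelial, macrophage, mural, neural and bone markers had 2, 3, 5, 4, 6 and 3 members tested, and 0 called between the ligands. With 0.296% of all genes called, 0 calls among so few members say little about other cell types. Myod1, Myf5, Myog, Pax7 and Myf6 were at 0 in all 6 libraries. The endothelial list summed to 0.5453 to 0.7439 RPKM in FGF9 cells and 0.475 to 0.7461 RPKM in FGF8b cells, and the macrophage list to 5.357 to 7.741 RPKM in FGF9 cells and 5.614 to 6.32 RPKM in FGF8b cells. Fgf8 and Fgf9 themselves were nearly silent in the cells. Fgf9 had 0, 0 and 0.0169 RPKM in FGF9 cells and 0, 0 and 0.0444 RPKM in FGF8b cells, and Fgf8 was above 0 in only 1 of these 6 libraries, at 0.0426 RPKM in an FGF9 one.

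Few genes differed between the ligands. Among those with a mean of at least 1 RPKM in either, Spry4, an ERK-pathway inhibitor, had the largest rise on log2(RPKM + 0.5). The non-coding RNA H19 had the largest fall on that scale, which shrinks differences of low genes. By ratio of mean RPKM, Aff2 (2.17), Adcy8 (2.06) and Cnr1 (1.92) rose more than Spry4 (1.76), and Ptgfr (0.541) fell further than H19 (0.571). Of 13869 genes tested, 41 (0.296%) differed between FGF9 and FGF8b cells at an adjusted p under 0.05, 28 higher (0.202%) and 13 lower (0.0937%) in FGF9 cells (limma with Benjamini-Hochberg adjustment, on log2(RPKM + 0.5), over all 15 libraries). None of the 41 (0%) reached a log2 difference of 1 on this scale, which understates low genes. The ratio of mean RPKM was 5.04 for Lat, 3.62 for Tmem132b, 2.76 for LOC101056067, 2.17 for Aff2, 2.08 for Kcnf1 and 2.06 for Adcy8. Among the falls the lowest ratio was 0.541, of Ptgfr. In the same fit 9108 genes (65.7%) passed in FGF9 against control and 8931 (64.4%) in FGF8b against control. The median absolute log2 difference over all genes was 0.0677 for FGF9 minus FGF8b, against 0.359 for FGF9 minus control and 0.343 for FGF8b minus control. Between ligands, 977 genes (7.04%) had an unadjusted limma p under 0.05, and in 1504 (10.8%) the FGF9 and FGF8b libraries did not overlap. Lack of overlap was part of the rule for naming called genes. Where it is given for called genes below, it adds no support to their calls. The RNA is bulk, so a change in how many cells express a gene and a change per cell cannot be told apart.

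On log2(RPKM + 0.5) the test had the precision to bound most differences. Because that scale shrinks differences of low genes, it does not bound their ratios in the same way. Tmem132b had an interval of 0.53 to 0.86 at a ratio of mean RPKM of 3.62. The 95% limma interval of FGF9 minus FGF8b lay within 0.5 log2 on either side of 0 for 90.3% of genes and within 1 for 99.6%. Pearson's r of log2 levels across genes was 0.9925 to 0.9962 between FGF9 and FGF8b libraries, 0.9913 to 0.9962 within FGF9 and 0.9955 to 0.9964 within FGF8b. Pairs of libraries from different ligands were thus about as alike as replicates, while FGF9 and control libraries gave 0.9146 to 0.9228 and FGF8b and control libraries 0.9233 to 0.9318. The calls depended on 15 libraries sharing the estimate of the spread: with only the 6 libraries, 0 genes passed (804 at an unadjusted limma p under 0.05; voom on recovered reads over all libraries called 62). Leaving out 1 library left 35 calls without FGF9 replicate 1, 10 without FGF9 replicate 2, 6 without FGF9 replicate 3, 10 without FGF8b replicate 1, 7 without FGF8b replicate 2 and 17 without FGF8b replicate 3. Spry4, Egr1, Plau, Tmem132b, Ptgfr and Medag were called in each of those 6 fits. With reads thinned to one depth in every library, 26 genes were called.

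Other settings ended further calls. A pseudocount of 0.1 ended those of Aff2, Adcy8, Cnr1, Sema7a, Areg, Gap43, Dusp6, Kcnf1, Bmp2, Bdnf, Pcdh7, Mgst1, Pdgfra and Il15. The replicate number as a block ended those of Aff2, Cnr1, Sema7a, Areg, Grem1, Bdnf, Lbh, Pcdh7, Pdgfra, Ogn and Il15. Thinning ended those of Lat, Aff2, LOC101056067, Cnr1, Areg, Gap43, Kcnf1, Bmp2, Hbegf, Lbh, Pcdh7 and Igf2r among the rises and of Mgst1, Pdgfra, Adamts5 and Il15 among the falls. TMM scaling ended those of Aff2, Grem1, Bdnf, Pcdh7 and Mgst1, and median-ratio scaling the same ones except Pcdh7. Voom on recovered reads ended those of Aff2, LOC101056067, Mgst1, Ogn and Mme. Dropping the level filter ended those of Lat, Aff2, LOC101056067, Sema7a, Areg, Gap43, Nptx1, Grem1, Bdnf, Lbh, Mgst1, Pdgfra, Adamts5, Ogn and Il15. A fit without the mean-variance trend ended those of Aff2, Sema7a, Grem1, Lbh, Igf2r, Mgst1, Cxcl12, Pdgfra and Ogn. Sums of all lines of a symbol ended those of Aff2, LOC101056067, Sema7a, Areg and Il15.

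**Figure D1:**
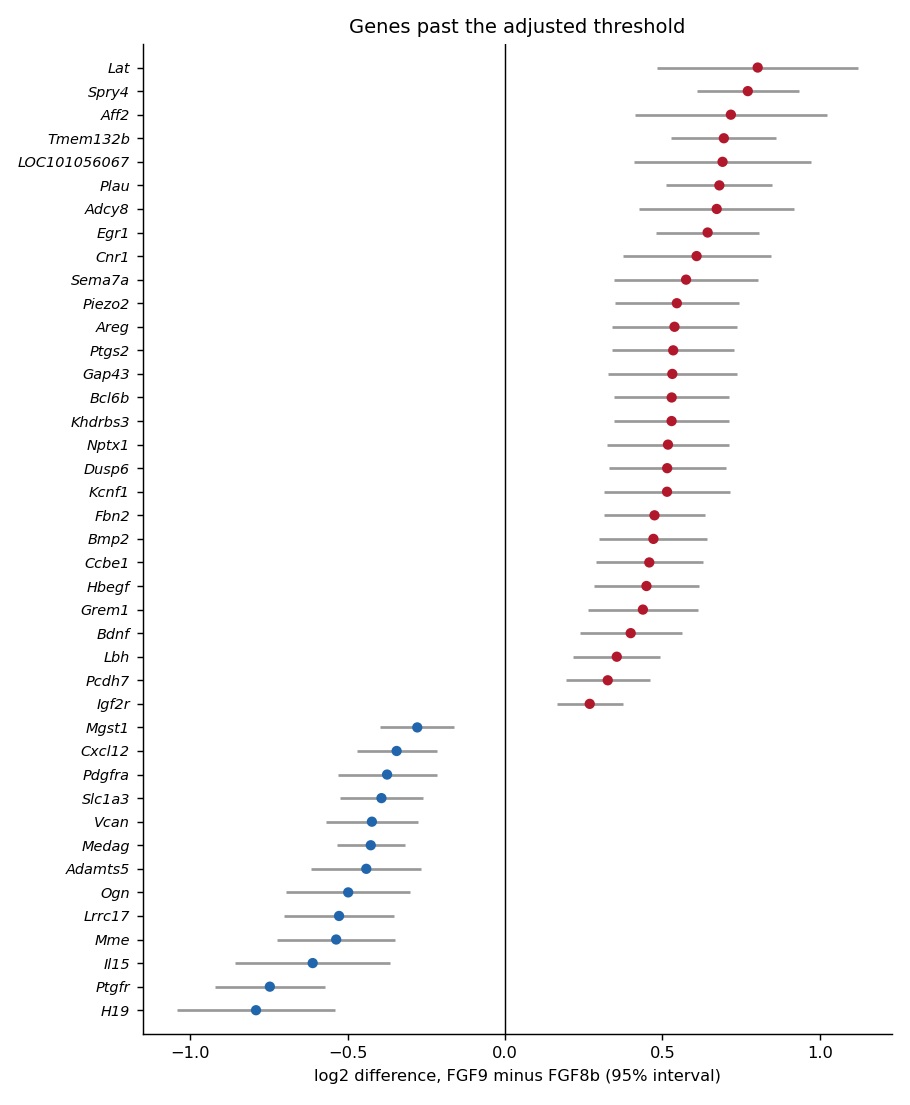
Log2 difference, FGF9 minus FGF8b, on log2(RPKM + 0.5) for the 41 genes past the adjusted threshold, with the 95% limma interval as a bar. The 28 genes higher in FGF9 cells (red) run down to Igf2r at 0.27, and the 13 lower ones (blue) run from Mgst1 at -0.28 to H19 at -0.79.

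Spry4, Egr1 and Dusp6 rose in FGF9 cells. They were the called members of a list of 26 ERK feedback and early response genes, all tested, of which 3 rose (11.5%, against 0.202% of all genes) and 0 fell. The log2 difference was above 0 in 25 of the 26, with a median of 0.172, against 7368 of 13869 genes and a median of 0.00781 over all genes tested. In 10 of the 26 every FGF9 library lay above every FGF8b library, against 759 (5.47%) of all genes, and in none was it the other way round. The per-library median of the list was 3.70 to 3.71 log2(RPKM + 0.5) in FGF9 cells, 3.25 to 3.35 in FGF8b cells and 1.56 to 1.83 in control cells.

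Spry4, a Sprouty inhibitor of receptor tyrosine kinase signalling (chromosome 18, 38586247 to 38601415, minus strand, GRCm38), showed the clearest difference. It had 10.9, 10.7 and 10.9 RPKM in FGF9 cells, 5.81, 6.10 and 6.5 RPKM in FGF8b cells and 0.349 ± 0.0466 RPKM in control cells (SD, n = 3). The FGF9 libraries were close together and far above the FGF8b ones. The log2 difference was 0.77 (SE 0.0756, limma adjusted p = 0.0005), and 3.74 for FGF9 and 2.97 for FGF8b against control. Egr1, a zinc-finger early response factor (chromosome 18, 34859823 to 34864984, plus strand, GRCm38), had 16.8, 16.4 and 15.9 RPKM in FGF9 cells, 11.1, 9.40 and 10.4 RPKM in FGF8b cells and 14.3 ± 1.33 RPKM in control cells. Control thus lay between the ligands. The FGF9 minus FGF8b log2 difference was 0.64 (SE 0.0773, limma adjusted p = 0.00116), made of 0.19 for FGF9 against control (adjusted p = 0.0373) and -0.45 for FGF8b against control (adjusted p = 0.000104). Dusp6, the phosphatase that removes activating phosphates from ERK, had 25.6, 28.4 and 26.4 RPKM in FGF9 cells, 18.1, 18.5 and 19.3 RPKM in FGF8b cells and 1.35 ± 0.11 RPKM in control cells. Its log2 difference was 0.51 (SE 0.0871, limma adjusted p = 0.0227), and 3.89 and 3.37 for FGF9 and FGF8b against control. The Dusp6 call was lost without FGF9 replicate 2 or 3 or without any one FGF8b library (adjusted p 0.0587 to 0.11).

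Other brakes and effectors of the cascade lay higher in FGF9 cells without passing the test. They were picked here after their values were seen. Dusp4, another ERK phosphatase, had 16.9, 14.3 and 15.1 RPKM in FGF9 cells and 12.9, 11.8 and 11.7 RPKM in FGF8b cells (log2 difference 0.33, adjusted p = 0.289). Ccnd1, the cyclin that drives entry into the cell cycle, had 46.8, 46.3 and 49.9 RPKM in FGF9 cells and 34.5, 37.2 and 40.2 RPKM in FGF8b cells (0.35, adjusted p = 0.114). For both genes, as for Ier3 (0.42) and Rasa1 (0.32), the groups did not overlap. Etv4, an ETS factor and standard FGF target, had 25, 29.3 and 28.1 RPKM in FGF9 cells and 23.2, 22.5 and 25 RPKM in FGF8b cells. These groups met at the edge, and the log2 difference of 0.22 (95% interval -0.06 to 0.49) did not pass (adjusted p = 0.814). Spry2, a close relative of Spry4, was nearly level, with a log2 difference of 0.02 (-0.13 to 0.18). The list therefore differed member by member, and its widest difference was at Spry4.

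Promoters are shown for Areg, an EGF-receptor ligand, Dusp6 and the prostaglandin synthase Ptgs2, 3 rising genes of different lists, chosen as examples with their values known from the 24 of 41 genes that had a promoter entry. Each line gives the 250 bases before the RefSeq start of the gene on GRCm38.p6, plus strand, at chr5:91139349-91139598 for Areg, chr10:99262981-99263230 for Dusp6 and chr1:150099781-150100030 for Ptgs2. Capitals mark matches on either strand to TGACGTCA (a cyclic AMP response element), TGANTCA (an AP-1 element) or AGGAAG (an ETS core with flanks), which do not overlap one another here.
Areg: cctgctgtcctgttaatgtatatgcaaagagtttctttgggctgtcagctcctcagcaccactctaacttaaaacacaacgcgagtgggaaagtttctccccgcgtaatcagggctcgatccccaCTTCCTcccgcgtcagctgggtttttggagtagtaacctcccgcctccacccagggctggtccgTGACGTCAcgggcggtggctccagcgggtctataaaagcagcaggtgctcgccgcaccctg
Dusp6: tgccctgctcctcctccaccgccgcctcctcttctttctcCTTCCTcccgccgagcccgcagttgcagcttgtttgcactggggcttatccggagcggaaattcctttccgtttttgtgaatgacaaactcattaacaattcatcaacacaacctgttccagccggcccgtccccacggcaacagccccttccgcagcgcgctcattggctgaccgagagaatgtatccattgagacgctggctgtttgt
Ptgs2: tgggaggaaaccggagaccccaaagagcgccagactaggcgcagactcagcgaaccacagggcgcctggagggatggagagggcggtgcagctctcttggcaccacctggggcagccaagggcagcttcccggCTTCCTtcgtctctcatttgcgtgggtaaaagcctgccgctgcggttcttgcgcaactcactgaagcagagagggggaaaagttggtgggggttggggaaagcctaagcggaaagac
Areg held TGACGTCA starting 61 bases before its start, and all 3 held AGGAAG on the minus strand. Among 32851 RefSeq promoters cut to the same window, 1.55% held TGACGTCA, 6.75% TGANTCA and 29.5% AGGAAG. Over all 24 genes with an entry, 1 held TGACGTCA (Areg), 0 held TGANTCA and 10 held AGGAAG, 7 of the 14 that rose and 3 of the 10 that fell. The matches describe the letters in these windows only.

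**Figure D2:**
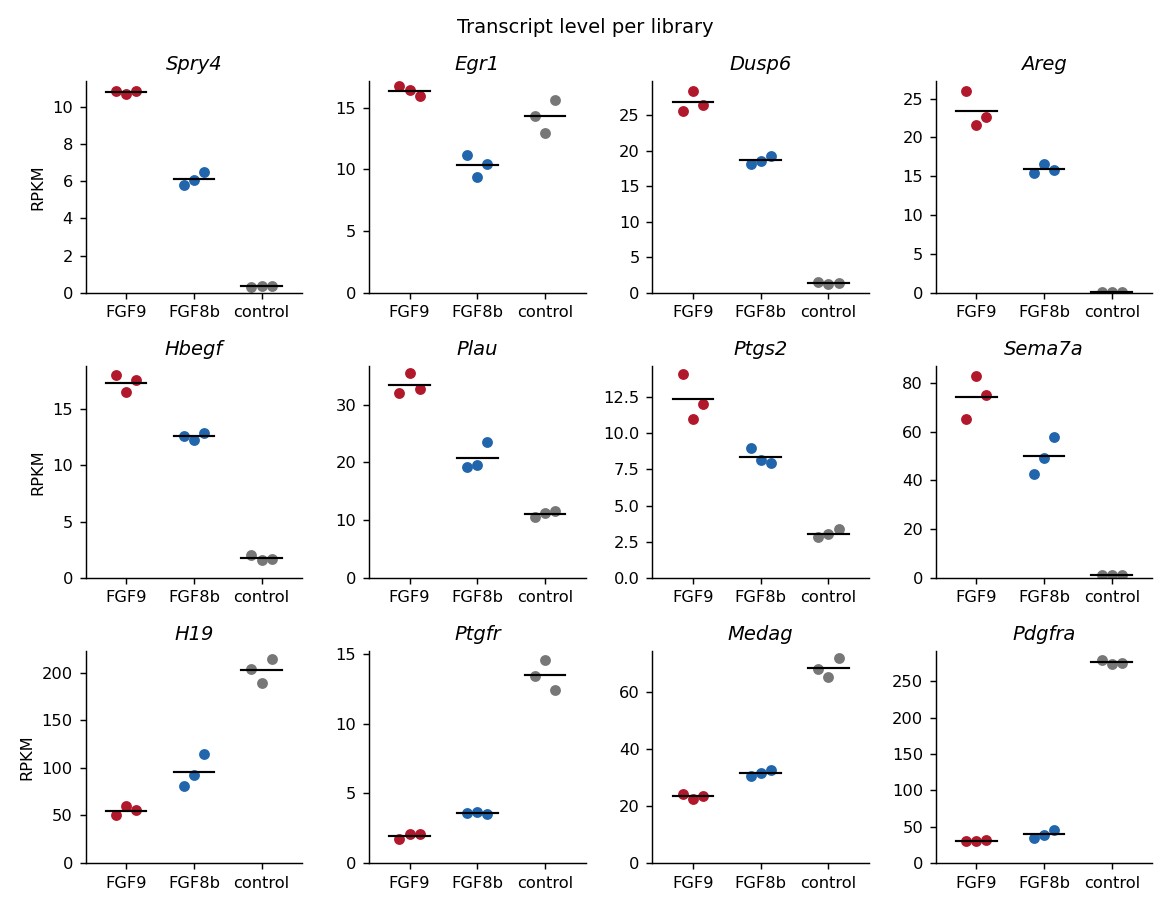
RPKM in each library (points) and group mean (line) for 12 of the genes that differed, with FGF9, FGF8b and control cells from left to right and every axis starting at 0. Spry4 sits at 10.7 to 10.9 RPKM in FGF9 cells and 5.81 to 6.5 RPKM in FGF8b cells, and for Egr1 the control points lie between those of the ligands.

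Areg and Hbegf, ligands of the EGF receptor, rose in FGF9 cells. These membrane-anchored growth factors are shed from the cell and act on ERBB receptors. Of 10 tested genes of the list, 2 rose (20%, against 0.202% of all genes), Areg and Hbegf, and 0 fell, and the median log2 difference of the 10 was 0.0416. Areg, amphiregulin, had 26.0, 21.6 and 22.7 RPKM in FGF9 cells and 15.4, 16.5 and 15.8 RPKM in FGF8b cells, and was nearly off in control cells (0.0853 ± 0.0223 RPKM, SD, n = 3). The FGF9 minus FGF8b log2 difference was 0.54 (SE 0.0937, limma adjusted p = 0.0227). Hbegf, heparin-binding EGF-like growth factor, had 18.0, 16.5 and 17.6 RPKM in FGF9 cells and 12.6, 12.2 and 12.9 RPKM in FGF8b cells, against 1.78 ± 0.244 RPKM in control cells. The fitted log2 difference was 0.45 (SE 0.0782, limma adjusted p = 0.0227). For both genes all FGF9 libraries lay above all FGF8b libraries. Ereg, epiregulin, also did not overlap, at 5.47, 5.10 and 5.23 RPKM in FGF9 cells and 3.82, 4.35 and 3.98 RPKM in FGF8b cells, but did not pass (log2 difference 0.34, adjusted p = 0.23). The receptors Egfr (-0.01) and Erbb2 (-0.29) had no call. The Areg and Hbegf calls were lost on leaving out any one of the 6 libraries, at adjusted p of 0.0501 to 0.124 for Areg and 0.0533 to 0.135 for Hbegf.

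Urokinase was the protease that rose. Plau, the secreted activator of plasminogen (chromosome 14, 20836660 to 20843385, plus strand, GRCm38), had 32.1, 35.4 and 32.8 RPKM in FGF9 cells, 19.2, 19.5 and 23.5 RPKM in FGF8b cells and 11.1 ± 0.573 RPKM in control cells (SD, n = 3). The groups were well apart, with a log2 difference of 0.68 (SE 0.0789, limma adjusted p = 0.0011). Against control Plau rose by 1.55 in FGF9 cells and 0.87 in FGF8b cells on the log2 scale. Of 23 tested matrix proteases and inhibitors, Plau was the 1 that rose and Adamts5, an aggrecanase, the 1 that fell (4.35% each, against 0.202% and 0.0937% of all genes), and the median was 0.00774. Adamts5 had 3.70, 3.72 and 4.02 RPKM in FGF9 cells, 5.73, 5.01 and 5.33 RPKM in FGF8b cells and 41.3 ± 1.05 RPKM in control cells (log2 difference -0.44, limma adjusted p = 0.0327). The Adamts5 call was lost without any one of the 6 libraries (adjusted p 0.0814 to 0.175).

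The prostaglandin synthase Ptgs2 rose and the prostaglandin receptor Ptgfr fell in FGF9 cells. Of 13 tested prostaglandin genes these were the 1 that rose and the 1 that fell (7.69% each, against 0.202% and 0.0937% of all genes), and the median log2 difference was 0.0373. Ptgs2, cyclooxygenase-2, which makes the precursor of prostaglandins, had 14.1, 11.0 and 12 RPKM in FGF9 cells, 8.97, 8.14 and 7.98 RPKM in FGF8b cells and 3.06 ± 0.273 RPKM in control cells (SD, n = 3). The difference on the log2 scale was 0.53 (SE 0.091, limma adjusted p = 0.0227). Ptgfr, the receptor for prostaglandin F2α (chromosome 3, 151796502 to 151837630, minus strand, GRCm38), had 1.70, 2.05 and 2.08 RPKM in FGF9 cells and 3.59, 3.63 and 3.55 RPKM in FGF8b cells, against 13.5 ± 1.07 RPKM in control cells. All FGF9 libraries lay below all FGF8b libraries. Its log2 difference was -0.75 (SE 0.0815, limma adjusted p = 0.00101), with -2.52 for FGF9 and -1.77 for FGF8b against control. The Ptgs2 call was lost without FGF9 replicate 1 or 3 or any one FGF8b library (adjusted p 0.0609 to 0.11).

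Sema7a, Gap43, Cnr1, Bdnf and Nptx1 rose too. Sema7a, a membrane-anchored semaphorin, had 65.0, 82.8 and 74.9 RPKM in FGF9 cells, 42.6, 49.1 and 57.8 RPKM in FGF8b cells and 1.16 ± 0.136 RPKM in control cells (SD, n = 3). The FGF9 minus FGF8b log2 difference was 0.57 (SE 0.108, limma adjusted p = 0.0336). Of 21 tested semaphorins, plexins and neuropilins, Sema7a was the 1 that rose (4.76%, against 0.202% of all genes), and 0 fell. Gap43, a growth-cone protein, had 9.50, 11.5 and 9.71 RPKM in FGF9 cells and 6.54, 6.77 and 7.40 RPKM in FGF8b cells (0.53, adjusted p = 0.0307). Cnr1, the cannabinoid receptor, had 1.40, 1.01 and 1.48 RPKM in FGF9 cells and 0.745, 0.766 and 0.518 RPKM in FGF8b cells (0.61, adjusted p = 0.0307), and was close to 0 in control cells (0.0126 RPKM). Bdnf, a neurotrophin, rose by 0.40 (adjusted p = 0.0368), and Nptx1, a neuronal pentraxin, by 0.52 (adjusted p = 0.0227). In all 5 genes the groups did not overlap, which adds no support beyond the calls. The neural and Schwann marker list had 0 of 6 tested members called (against 0.296% of all genes), with a median of -0.0525. It summed to 4.364 to 5.456 RPKM in FGF9 cells, 4.864 to 5.324 RPKM in FGF8b cells and 12.52 to 13.29 RPKM in control cells. Leaving out FGF9 replicate 3, FGF8b replicate 1 or FGF8b replicate 2 ended each of the 5 calls, FGF9 replicate 2 all but that of Cnr1, FGF8b replicate 3 those of Gap43, Cnr1 and Bdnf, and FGF9 replicate 1 that of Cnr1. The adjusted p after these losses ran from 0.159 to 0.182 for Sema7a, 0.0587 to 0.152 for Gap43, 0.0814 to 0.189 for Cnr1, 0.108 to 0.208 for Bdnf and 0.0848 to 0.143 for Nptx1.

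Several low-level genes rose on few reads. Tmem132b, a membrane protein gene that the level limit for named genes left out, had 0.566, 0.601 and 0.512 RPKM in FGF9 cells and 0.141, 0.190 and 0.133 RPKM in FGF8b cells, from 531 against 119 reads. The depth-scaled ratio was 3.58 (exact 95% interval 2.93 to 4.4, counting error only), and the log2 difference of 0.69 on log2(RPKM + 0.5) understates it (limma adjusted p = 0.00104). Control cells held 1 Tmem132b read in all 3 libraries. Adcy8, an adenylyl cyclase, had 1.09, 1.48 and 1.27 RPKM in FGF9 cells and 0.420, 0.683 and 0.765 RPKM in FGF8b cells (0.67, adjusted p = 0.0227), and its groups did not overlap. Lat, an adaptor of T-cell receptor signalling, rested on 78 against 12 reads (ratio 5.21, exact 95% interval 2.82 to 10.5), and Kcnf1, a potassium channel subunit, on 357 against 138. Aff2, a nuclear protein linked to transcription elongation, had 1.36, 1.06 and 1.63 RPKM in FGF9 cells and 0.487, 0.696 and 0.683 RPKM in FGF8b cells (0.72, adjusted p = 0.0495). Aff2 kept its call in 1 of 18 alternatives and was lost without any one of the 6 libraries (adjusted p 0.0529 to 0.324), as was Kcnf1 (0.0596 to 0.176). Lat was lost without any of them except FGF9 replicate 1 (0.0724 to 0.225), and Adcy8 without FGF9 replicate 2 or 3 or FGF8b replicate 1 or 2 (0.0789 to 0.126).

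In the TGF-β and BMP list, 2 of 22 tested genes rose (9.09%, against 0.202% of all genes), the ligand Bmp2 and the BMP antagonist Grem1, and 0 fell, with a median of 0.0494. Bmp2 had 0.866, 0.689 and 0.790 RPKM in FGF9 cells and 0.421, 0.412 and 0.436 RPKM in FGF8b cells (log2 difference 0.47, limma adjusted p = 0.0227), and no read in control cells. Grem1 had 88.5, 70.2 and 79.8 RPKM in FGF9 cells, 58.3, 61.0 and 55.7 RPKM in FGF8b cells and 8.40 ± 0.794 RPKM in control cells (SD, n = 3; 0.44, adjusted p = 0.0348). Both genes had no overlap between ligands. Bmp2 was lost without any one of the 6 libraries (adjusted p 0.0501 to 0.111) and Grem1 without any except FGF9 replicate 2 (0.108 to 0.182). Bcl6b, a transcriptional repressor, had 5.86, 6.36 and 5.78 RPKM in FGF9 cells and 3.88, 3.94 and 4.19 RPKM in FGF8b cells (0.53, adjusted p = 0.0191). Bcl6b was lost without FGF9 replicate 2 or 3 or FGF8b replicate 1 or 2 (0.0714 to 0.0932). Further rises were those of Khdrbs3, an RNA-binding protein (0.53), Ccbe1, a secreted protein of lymphatic growth (0.46), Lbh, a transcription cofactor (0.35), and Pcdh7, a protocadherin (0.33). Each was lost without FGF9 replicate 2 or 3 or any one FGF8b library, and Pcdh7 also without FGF9 replicate 1, at adjusted p of 0.0596 to 0.109 for Khdrbs3, 0.07 to 0.13 for Ccbe1, 0.0587 to 0.167 for Lbh and 0.0587 to 0.197 for Pcdh7.

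Among the rises, 2 genes lay below control in both treatments and less far below it with FGF9. Piezo2, a mechanically gated ion channel, had 5.89, 6.10 and 6.22 RPKM in FGF9 cells, 3.51, 4.21 and 4.32 RPKM in FGF8b cells and 10.5 ± 1.19 RPKM in control cells (SD, n = 3). The fitted log2 difference was 0.55 (SE 0.0926, limma adjusted p = 0.0227), with -0.73 for FGF9 and -1.28 for FGF8b against control. Fbn2, the microfibril protein fibrillin-2, had 2.13, 2.27 and 2.24 RPKM in FGF9 cells, 1.32, 1.6 and 1.45 RPKM in FGF8b cells and 18.9 ± 0.847 RPKM in control cells (0.47, adjusted p = 0.0178). Neither gene had overlapping groups. Piezo2 was lost without FGF9 replicate 2 or 3 or FGF8b replicate 1 or 2 (adjusted p 0.0714 to 0.112), and Fbn2 without FGF9 replicate 2 or 3 or FGF8b replicate 1 or 3 (0.0535 to 0.103).

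On log2(RPKM + 0.5), H19 had the largest fall of the 13 genes lower in FGF9 cells. By ratio of mean RPKM, Ptgfr fell further (0.541, against 0.571 for H19). H19, an imprinted non-coding RNA of the Igf2 locus (chromosome 7, 142575529 to 142578143, minus strand, GRCm38), had 49.8, 59.4 and 55.1 RPKM in FGF9 cells, 81.0, 92.4 and 114 RPKM in FGF8b cells and 202 ± 12.6 RPKM in control cells (SD, n = 3). The difference on the log2 scale was -0.79 (SE 0.118, limma adjusted p = 0.0138), with -1.88 for FGF9 and -1.09 for FGF8b against control. In the list of insulin-like growth factor genes, which holds H19, 1 of 18 tested genes fell and 1 rose (5.56% each, against 0.0937% and 0.202% of all genes), the riser being Igf2r, the receptor that clears Igf2 (0.27, adjusted p = 0.0307), and the median was 0.0369. Igf2r had 55.3, 52.7 and 53.4 RPKM in FGF9 cells and 43.8, 44.4 and 45.5 RPKM in FGF8b cells, so its groups were apart as well. The H19 call was lost without FGF9 replicate 3 (adjusted p = 0.0765) or FGF8b replicate 2 (0.0553), and the Igf2r call without any one of the 6 libraries (0.0627 to 0.146).

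Ogn, Vcan, Pdgfra and Medag fell in FGF9 cells. Of 34 tested extracellular matrix genes, 2 fell (5.88%, against 0.0937% of all genes), Ogn and Vcan, and 0 rose, with a median of -0.0154. Ogn, the small leucine-rich proteoglycan osteoglycin, had 3.66, 2.83 and 3.64 RPKM in FGF9 cells and 4.93, 5.40 and 4.55 RPKM in FGF8b cells, against 417 ± 43.3 RPKM in control cells (SD, n = 3; log2 difference -0.50, limma adjusted p = 0.0327). Vcan, the large proteoglycan versican, had 26.8, 23.9 and 26.4 RPKM in FGF9 cells, 31.4, 35 and 37.7 RPKM in FGF8b cells and 94.7 ± 6.28 RPKM in control cells (-0.42, adjusted p = 0.0191). Pdgfra, the PDGF receptor that marks fat progenitors, was the 1 of 20 tested preadipocyte genes that fell (5%, against 0.0937% of all genes), and 0 rose. The list had 12 of 20 members above 0 and a median of 0.00901, and its members ran from -0.37 to 0.55. Pdgfra had 29.9, 30.4 and 31.0 RPKM in FGF9 cells, 34.6, 39.1 and 45.9 RPKM in FGF8b cells and 276 ± 2.66 RPKM in control cells (-0.37, adjusted p = 0.047). In all 3 genes the FGF9 libraries lay below every FGF8b library. Medag, which promotes adipocyte differentiation (chromosome 5, 149411749 to 149431723, plus strand, GRCm38), had 24.1, 22.5 and 23.3 RPKM in FGF9 cells, 30.4, 31.5 and 32.5 RPKM in FGF8b cells and 68.2 ± 3.28 RPKM in control cells (-0.43, SE 0.0504, adjusted p = 0.00112). Pdgfra was lost without any one library except FGF8b replicate 1 (adjusted p 0.0962 to 0.182), Ogn without any except FGF9 replicate 1 (0.0587 to 0.195), and Vcan without FGF9 replicate 2 or 3 or FGF8b replicate 2 or 3 (0.0624 to 0.0932).

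Cxcl12, Mme, Slc1a3, Lrrc17, Mgst1 and Il15 fell too. Cxcl12, the stromal chemokine, had 64.1, 70.0 and 67.5 RPKM in FGF9 cells, 81.3, 83.6 and 91.6 RPKM in FGF8b cells and 431 ± 32.8 RPKM in control cells (SD, n = 3). Its log2 difference was -0.34 (limma adjusted p = 0.0227). Of 21 tested chemokine and inflammation genes, Cxcl12 was the 1 that fell (4.76%, against 0.0937% of all genes), and 0 rose. Mme, the peptidase neprilysin, had 1.22, 1.10 and 0.956 RPKM in FGF9 cells and 1.82, 1.79 and 1.80 RPKM in FGF8b cells (-0.54, adjusted p = 0.0191), and Slc1a3, a glutamate transporter, had 9.11, 8.26 and 8.69 RPKM in FGF9 cells and 11.4, 11.1 and 12.2 RPKM in FGF8b cells (-0.39, adjusted p = 0.0178). Lrrc17, a secreted leucine-rich repeat protein, had 9.70, 10.2 and 10.5 RPKM in FGF9 cells and 13.0, 14.8 and 17.0 RPKM in FGF8b cells (-0.53, adjusted p = 0.0178). None of these 4 genes had overlapping groups. The smallest fall, of Mgst1, a membrane glutathione transferase (-0.28, adjusted p = 0.0481), kept its call in 3 of 18 alternatives. It was lost without any one of the 6 libraries (0.0624 to 0.271). Il15, a cytokine, stood apart from the other falls because FGF8b raised it against control. It had 2.59, 3.40 and 3.30 RPKM in FGF9 cells, 4.43, 5.45 and 5.07 RPKM in FGF8b cells and 3.20 ± 0.183 RPKM in control cells (-0.61, adjusted p = 0.0366). Cxcl12 and Il15 were lost without any one of the 6 libraries (adjusted p 0.0501 to 0.111 and 0.0672 to 0.22), Mme and Slc1a3 without any except FGF9 replicate 1 (0.0592 to 0.111 and 0.0553 to 0.103), and Lrrc17 without FGF9 replicate 2 or 3 or FGF8b replicate 2 (0.0501 to 0.0768).

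**Figure D3:**
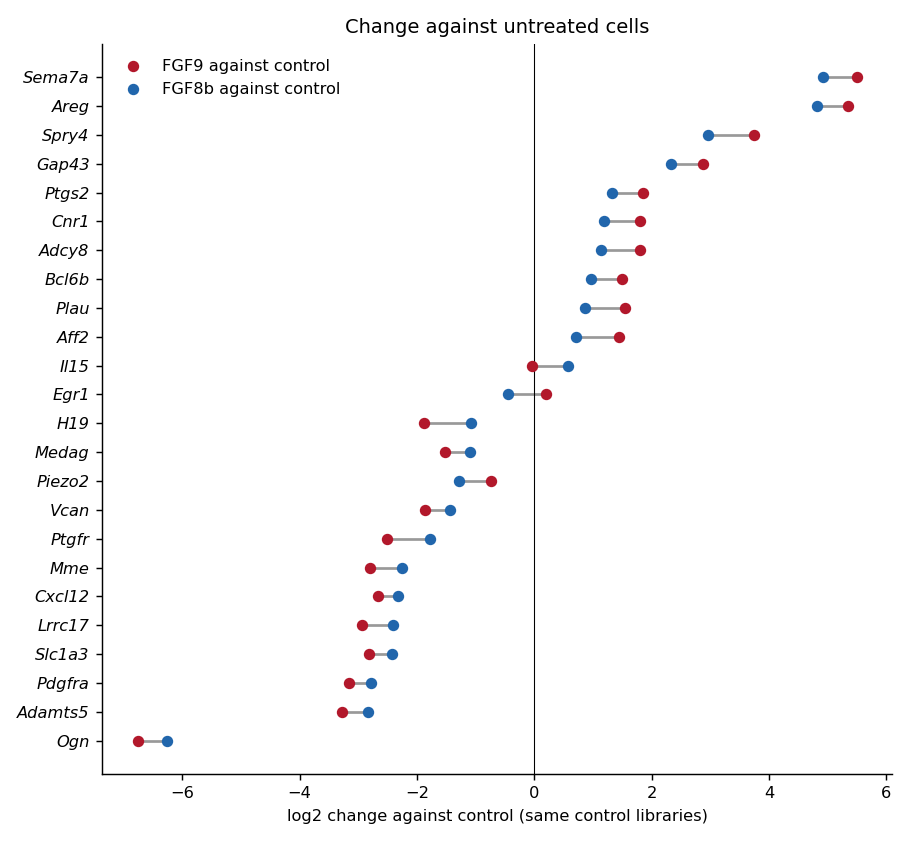
Log2 change against control for the 12 named genes with the largest difference in each direction, FGF9 in red and FGF8b in blue, on log2(RPKM + 0.5). Except for Piezo2, Egr1 and Il15, the FGF9 points lie further from 0 than the FGF8b points, and for Egr1 (0.19 and -0.45) and Il15 (-0.05 and 0.57) the ligands lie on either side of 0.

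Ucp1 was on in both treatments and did not pass between them. It had 34.8, 40.6 and 36.9 RPKM in FGF9 cells and 25.7, 28.1 and 26.2 RPKM in FGF8b cells, and 0.0226 ± 0.0232 RPKM in control cells (SD, n = 3). Every FGF9 library lay above every FGF8b library, but the log2 difference of 0.48 (95% interval 0.25 to 0.71) had a limma adjusted p of 0.108. With a pseudocount of 1 it passed (adjusted p = 0.0246), as with voom on recovered reads (0.00409). The ratio of depth-scaled reads was 1.40 (exact 95% interval 1.34 to 1.46, counting error only). Ppargc1a, a coactivator of the thermogenic programme, was low in both, on 36 reads in FGF9 cells and 19 in FGF8b cells. Most markers of mature brown adipocytes were low as well. In FGF9 and FGF8b cells Cidea averaged 0.0284 and 0.0184 RPKM, Adipoq 0.00871 and 0.0256, Plin1 0 and 0.021, and Elovl3 0.355 and 0.352. Cox8b was at 0 in all 6 libraries. Fabp4 was present, at 6.71 and 7.67 RPKM. The brown thermogenic list had 0 of 14 tested genes called (against 0.296% of all genes), with a median of 0.0403. Pparg, the master factor of adipocyte differentiation, had 2.39, 2.12 and 2.58 RPKM in FGF9 cells and 3.16, 2.22 and 2.66 RPKM in FGF8b cells (-0.14, interval -0.37 to 0.09, adjusted p = 0.9), and its groups overlapped.

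Other genes followed throughout had no call. Spp1, osteopontin, a secreted phosphoprotein, was higher in every FGF9 library, at 3858, 3524 and 3675 RPKM, than in any FGF8b library, at 3308, 3306 and 3290 RPKM, with a log2 difference of 0.16 (95% interval 0.04 to 0.28, limma adjusted p = 0.499). Slc2a1, which encodes GLUT1, had 40.7, 54.4 and 47.7 RPKM in FGF9 cells and 39.0, 35.1 and 41.1 RPKM in FGF8b cells (0.30, interval 0.09 to 0.51, adjusted p = 0.453), with overlap. Fgfr1, the FGF receptor with the highest level per transcript length here (Fgfr2 averaged 1.24 RPKM and Fgfr3 0.609 RPKM in FGF9 cells), had 66.6, 74.7 and 72.5 RPKM in FGF9 cells, 69.7, 62.3 and 72.4 RPKM in FGF8b cells and 70.9 ± 7.28 RPKM in control cells (SD, n = 3). Its log2 difference was 0.06 (interval -0.09 to 0.22, adjusted p = 0.954). Of 26 tested FGF receptor and coreceptor genes 0 were called (against 0.296% of all genes), nor were any of 7 tested FGF ligands, including Fgf7 (-0.15) and Fgf10 (0.09). Fgf1 transcripts, outside the rule for named genes, stood at 1.31, 1.29 and 1.40 RPKM in FGF9 cells and 0.788, 0.831 and 1.00 RPKM in FGF8b cells, with no overlap and an adjusted p of 0.114.

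ATF4 targets and interferon response genes, which moved far from control with both ligands, had no member called between FGF9 and FGF8b. With 0.296% of all genes called, 0 calls in lists of this size, here and below, do not set them apart from other genes. Atf4, the master factor of the amino acid stress response, had 312, 317 and 318 RPKM in FGF9 cells, 312, 307 and 320 RPKM in FGF8b cells and 79.7 ± 1.64 RPKM in control cells (SD, n = 3), with a log2 difference of 0.01 (95% interval -0.08 to 0.10). Its target Psat1, an enzyme of serine synthesis, differed by 0.01 (interval -0.11 to 0.12). None of 30 tested ATF4 targets was called. Their medians against control were 2.21 in FGF9 cells and 2.17 in FGF8b cells. Of the 30, 26 were higher with FGF9, against 7368 of all 13869 genes tested, and their log2 differences ran from -0.04 to 0.47. In 4 of the 30 every FGF9 library lay above every FGF8b library, against 759 (5.47%) of all genes, and in 0 it was the other way round. Of 27 tested interferon response genes, with medians against control of -2.45 in FGF9 cells and -2.30 in FGF8b cells, 0 were called. Of these, 24 lay below 0 with a median of -0.105, and 7 had every FGF9 library below every FGF8b library, against 745 (5.37%) of all genes. Ifit3, an interferon-induced antiviral gene, had 48.3, 47.4 and 44.8 RPKM in FGF9 cells, 56.2, 52.7 and 55.5 RPKM in FGF8b cells and 908 ± 51.2 RPKM in control cells, and its log2 difference of -0.23 (interval -0.77 to 0.32) did not pass (limma adjusted p = 0.956). Bst2, tetherin, had overlapping groups at 141, 170 and 136 RPKM in FGF9 cells and 193, 134 and 158 RPKM in FGF8b cells. Of 23 tested cholesterol synthesis genes 0 were called and 19 lay below 0, and Hmgcs1, an early enzyme of the pathway, had 40.4, 39.5 and 42.1 RPKM in FGF9 cells and 44.5, 49.0 and 52.4 RPKM in FGF8b cells (-0.25, adjusted p = 0.499). The lists for glycolysis, fatty acid oxidation with the citrate cycle, the respiratory chain, DNA replication and mitosis, hypoxia, unfolded protein, WNT, contractile, glucose sensing and adipocyte differentiation genes, and that of proliferins and osteopontin, had 0 members called. In the first 4 of these, in that order, 15 of 21, 16 of 21, 22 of 27 and 24 of 32 tested members lay below 0. In the others, in that order, it was 12 of 20, 10 of 19, 9 of 16, 9 of 18, 4 of 8, 7 of 18 and 6 of 12. A lean below 0 was thus not particular to interferon and cholesterol genes.

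**Figure D4:**
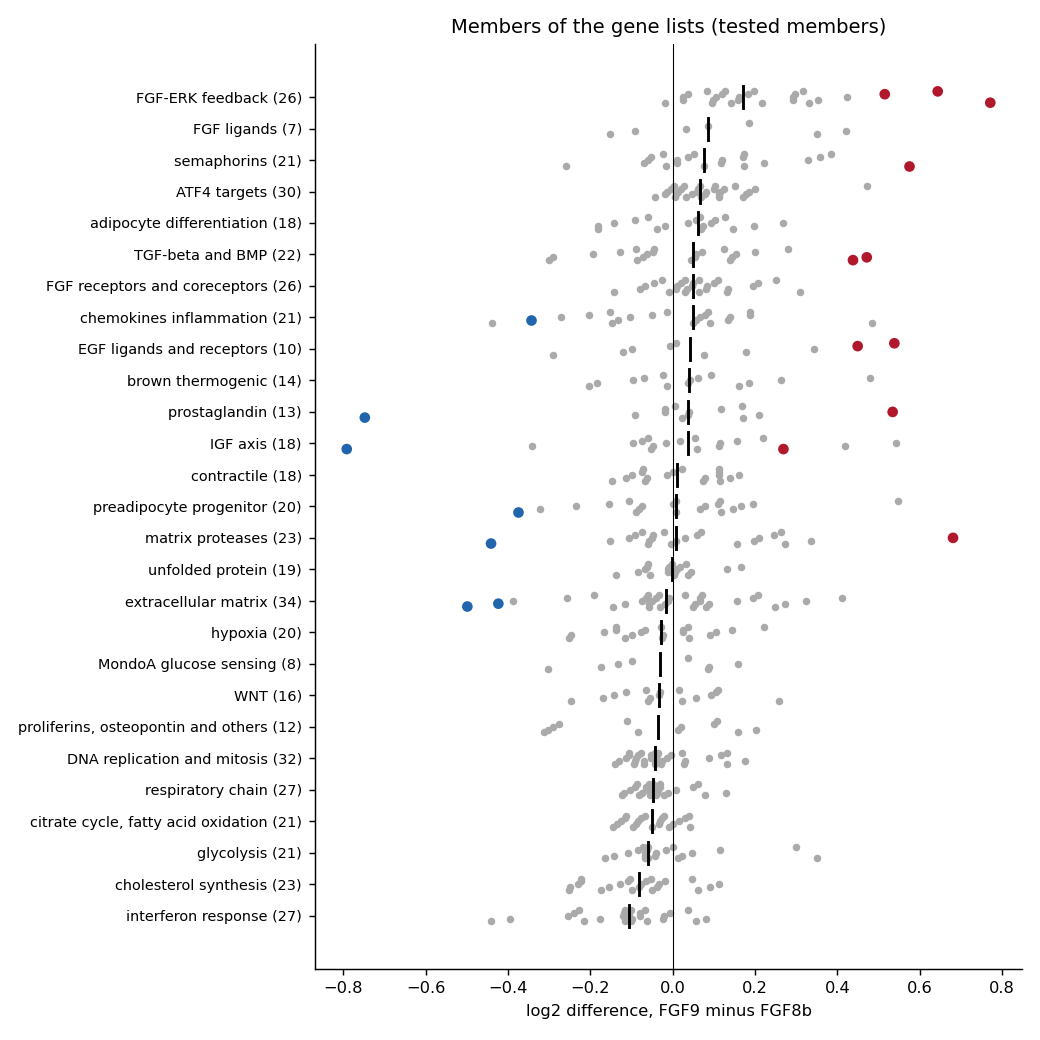
Log2 difference, FGF9 minus FGF8b, of each tested member of 27 gene lists (points) with the list median (black bar) and the number tested in brackets, on log2(RPKM + 0.5). Called members are red (higher in FGF9 cells) or blue (lower), and the FGF-ERK feedback list has the median furthest above 0, at 0.172.

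How the difference in strength ran across genes was described with a comparison that holds no FGF9 library and no library of FGF8b alone. Against control, FGF8b with BAY-876 raised 1091 genes (7.87%) and lowered 1578 (11.4%) with a log2 change of at least 1 and a limma adjusted p under 0.05. Among the 1091 raised genes, 14 (1.28%, against 0.202% of all genes) were higher in FGF9 than in FGF8b cells and 0 lower. Their median log2 difference was 0.0851, and 844 lay above 0, against 7368 of all 13869 genes, whose median was 0.00781. Among the 1578 lowered genes, 2 (0.127%) were higher and 13 (0.824%) lower, against 0.202% and 0.0937% of all genes. Their median was -0.0465, and 534 lay above 0. All 13 genes lower in FGF9 cells were thus among those that FGF8b with BAY-876 lowered. With FGF8b alone, Il15 lay above control (0.57, against -1.26 with BAY-876 added), and the other falls lay below it. Against control H19 was at -1.09 with FGF8b alone and -6.17 with BAY-876 added, and Mgst1 at -2.12 and -1.91. Binned by that change, the median FGF9 minus FGF8b difference was -0.172 for the 102 genes lowered by more than 4 on the log2 scale, -0.0661 for 478 lowered by 2 to 4, and 0.00726 for 7594 changed by at most 0.5. It was 0.076 for 890 genes raised by 1 to 2, and 0.144 for 179 raised by 2 to 4, of which 159 lay above 0. The 22 genes raised by more than 4 had a median of 0.148 with 15 above 0. Across the 13869 genes, Pearson's r between the FGF8b with BAY-876 change and the FGF9 minus FGF8b difference was 0.303 and Spearman's rho 0.297. Genes are not independent replicates, and all values come from 1 table. The BAY-876 cells received FGF8b and the inhibitor together, so the change used for grouping is not that of FGF8b alone.

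By the FGF1 change the medians ran over a smaller range. FGF1 raised 172 genes (1.24%) and lowered 360 (2.6%) by at least 1 on the log2 scale against control. Among the raised genes 4 (2.33%) were higher and 3 (1.74%) lower in FGF9 than in FGF8b cells, against 0.202% and 0.0937% of all genes, and their median was -0.0235. Among the lowered genes 2 (0.556%) were higher and 1 (0.278%) lower, with a median of -0.0229. Bin medians by FGF1 change lay between -0.0277 and 0.00891. Bins with few genes were left out, so these ran only from falls of 2 to 4 up to rises of 1 to 2. The bins by the FGF8b with BAY-876 change reached further, past 4 in both directions. Across genes, Pearson's r was 0.055 and Spearman's rho 0.058. Spry4 and Dusp6, at 0.248 and 0.941 RPKM in FGF1 cells, were not above their control means of 0.349 and 1.35 RPKM there.

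**Figure D5:**
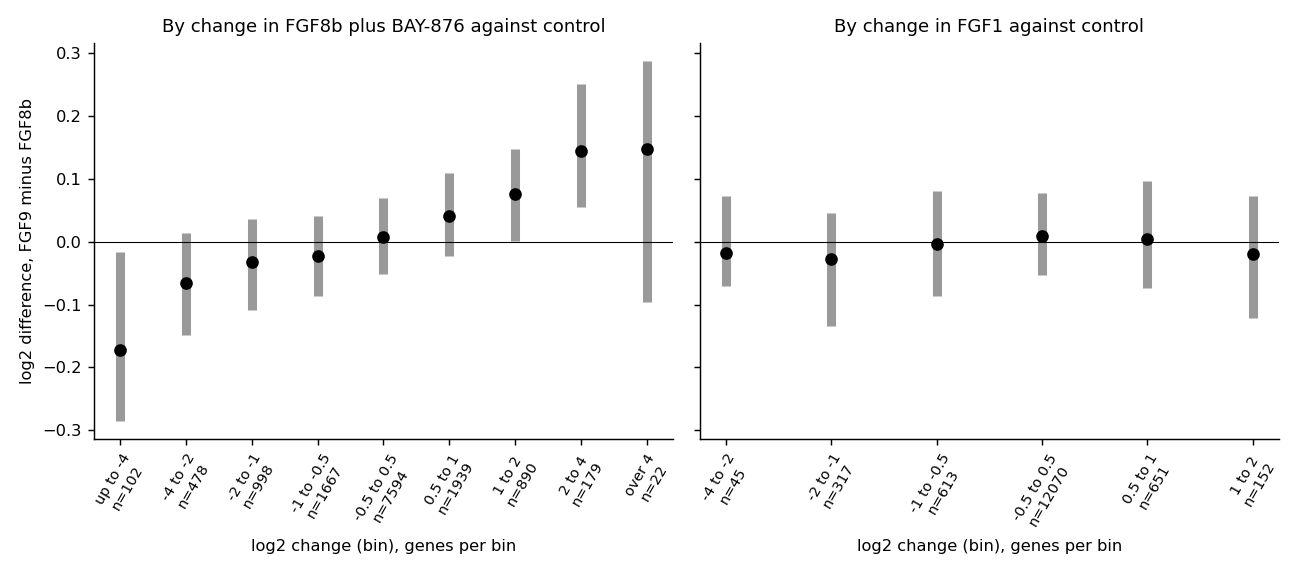
Median log2 difference, FGF9 minus FGF8b (points), with the range from the lower to the upper quartile of genes (bars), for genes binned by their log2 change against control with FGF8b plus BAY-876 (left) or FGF1 (right). On the left the medians run from -0.172 to 0.148, and on the right they stay between -0.0277 and 0.00891. Bins with few genes are left out, so the right panel covers smaller changes than the left.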

How the data were processed

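Total RNA of 15 libraries was made into TruSeq libraries, per the labels' protocols. The deposited table of transcript lines (168326, 15 value columns, 0 not matched to a sample) holds RPKM made by the authors, written with decimal commas. The table does not name its unit, which was worked out here from the values: times transcript length, 94.1% to 95.1% of low values in a library were whole steps (tolerance 0.05). The submitters' processing notes name CASAVA and bcl2fastq; the aligner and build were not given in the sources used here, nor strand nor how reads shared between genes were handled, so near-identical and overlapping genes are uncertain.

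Lines with a symbol (29072 genes) were reduced to the line with the highest mean. Those reaching 0.5 RPKM in 3 or more libraries (13869) were tested with limma 3.58.1 (R 4.3.3) on log2(RPKM + 0.5), with a mean-variance trend, all 15 libraries in 5 groups (10 residual degrees of freedom) and Benjamini-Hochberg adjustment at 0.05. Fold changes on this scale understate those of low genes. The script was tested on simulated data. Reads recovered from the steps for 13868 genes gave exact intervals, the voom alternative and a thinned one to 27.01 M reads, which was chosen after seeing the data. Intervals cover counting error only.

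Named genes are those past the threshold without overlap between groups, with a mean of at least 1 RPKM in either and no predicted model (23 higher and 13 lower were eligible), the 12 with the largest difference per direction. To these came Ucp1, Ppargc1a, Pparg, Fgfr1, Dusp6, Etv4, Spp1, Slc2a1, Ptgs2, Fgf8 and Fgf9, and per list up to 4 called members or, where none was, the 2 with the highest mean. Others named in the text were chosen after their values were seen. The comparison and the gene lists were chosen with earlier results of these data known. Gene positions are from GENCODE on GRCm38, and promoters from RefSeq on GRCm38.p6, with Python 3.11.15.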

Additional observations from a re-analysis of the deposited data

Results flagged for a closer look

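For 3 genes the change against control differed between the ligands by the test of FGF9 against FGF8b itself, with the ligands on either side of control. Egr1 differed by 0.64 (limma adjusted p = 0.00116), with 0.19 for FGF9 (adjusted p = 0.0373) and -0.45 for FGF8b (0.000104) against control. Il15 differed by -0.61 (adjusted p = 0.0366), with -0.05 for FGF9 (0.745) and 0.57 for FGF8b (0.000509). LOC101056067, a predicted gene, differed by 0.69 (adjusted p = 0.0373), with 0.41 for FGF9 (0.0124) and -0.28 for FGF8b (0.0763), on 28 reads in FGF9 cells and 8 in FGF8b cells; its call was lost without any one of the 6 libraries (adjusted p 0.0614 to 0.192).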

How the results depend on the processing

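The 41 calls (28 higher, 13 lower, 0 with a log2 difference of at least 1) were recounted under 18 alternatives. A pseudocount of 0.1 gave 27 (17 higher; 3 past 1), no filter left 8 lower, voom on recovered reads gave 62 (49 higher; 4 past 1), sums of all lines of a symbol put 2 past 1, and reads thinned to one depth, added after seeing the data, gave 26 (17 higher). The fit with only the 6 libraries, which has fewer degrees of freedom, gave 0 called, 0 higher and 0 lower. Leaving out 1 library gave 6 to 35 called, 4 to 24 higher and 2 to 11 lower. The cause of the other shifts was not tested. None of the results computed changed sign among called genes. Voom raised the share of higher calls to 79%, against 68.3%, and FGF8b replicate 1 left out lowered it to 40%. With the replicate number as a block 30 genes were called (20 higher, 10 lower). Same-numbered FGF9 and FGF8b libraries had deviations correlated at -0.027, -0.255 and 0.13, and differently numbered ones at -0.238 to 0.294. Deviations from a mean of 3 libraries depend on one another, so these values cannot decide whether the numbers pair the libraries. The median of all genes stayed between -0.0048 and 0.0163 in every alternative. The FGF-ERK feedback median was 0.233 without FGF8b replicate 3. Depth limits genes of few reads, such as Lat and LOC101056067.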

Other observations

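Transcript lines without a gene symbol were tested in a fit of their own. Of 3562 such lines 0 were called in either direction (limma, lowest adjusted p = 0.569), with 206 at an unadjusted p under 0.05; no other tool was run on them. Among genes with a symbol, 2 had a log2 difference of at least 1 and neither passed the adjusted threshold, Ly6i, of the multigene Ly6 family, at -1.45 and 2610044O15Rik8 at -1.07. Il33, an alarmin cytokine, had 131, 106 and 121 RPKM in FGF9 cells, 84.0, 87.9 and 83.1 RPKM in FGF8b cells and 1.63 RPKM on average in control cells, with a log2 difference of 0.48 (limma adjusted p = 0.159). Pi16, a surface marker of fibroblast progenitors, had 7.48, 11.0 and 8.19 RPKM in FGF9 cells and 5.40, 5.60 and 6.58 RPKM in FGF8b cells (0.55, adjusted p = 0.1). The groups did not overlap in either gene, and both were chosen after their values were seen.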
